A study of Homo sapiens with 25 samples.

Results

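Chromatin of NB4 cells was compared between 2 doses of retinoic acid (RA), 1 µM and 0.01 µM, through 4 histone marks: H3K4me1, H3K4me2, H3K4me3 and H3K27ac. The comparison used the 8 libraries labelled with RA alone, out of 25 in the series, which is 1 library per mark and dose. NB4 is an established human line of acute promyelocytic leukemia, and the cells had been treated for 24 h. The same 4 marks were mapped after DMSO (the solvent), after MC_2580 (an inhibitor of the demethylase LSD1, KDM1A), and after both MC_2580 and the low RA dose, the combination. These lists served only for reference, as did those of LSD1 in DMSO-treated cells and of the repressor GFI1, a partner of LSD1, in cells left untreated. All values come from 1 culture line and from lists of called peaks. A peak at 1 dose only is a call that the other list lacks, and no difference could be set against a replicate spread. Peaks within a library share that library and are not replicates of a dose.

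RA is the ligand of the nuclear retinoic acid receptors. Acute promyelocytic leukemia carries a fusion of such a receptor with PML, which holds target genes in a repressed state until RA is given, after which the cells mature towards granulocytes. H3K4me1 and H3K4me2 are found at enhancers and around promoters, H3K4me3 mainly at promoters, and H3K27ac at enhancers and promoters in use. A dose comparison of these marks asks where the low dose leaves the chromatin in a state other than that of the high dose.

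Peaks of the same mark at both doses were merged where they shared at least 1 base. Each merged region was classed as called at both doses or at 1 of them. In H3K4me1, 50580 of 65940 regions (76.7%) were called at both doses. A further 10645 regions (16.1%) were called only at 1 µM and 4715 (7.15%) only at 0.01 µM, a log2 ratio of 1.18 in favour of the high dose. The size of this ratio depended on the definition: it was 0.50 with lists of equal length, 0.40 with a 50% reciprocal overlap, and 2.65 where a dose-only peak had to score 100 and meet no peak of any score. H3K4me2 had the same direction, with 31607 of 45047 regions (70.2%) at both doses, 8923 (19.8%) only at 1 µM and 4517 (10%) only at 0.01 µM, a log2 ratio of 0.98. This direction depended on the lengths of the lists, 46010 peaks at 1 µM and 39302 at 0.01 µM. With the longer list cut by score to the shorter, the H3K4me2 counts were 4931 and 6149 and the log2 ratio was -0.32. The H3K4me2 lists also differed in peak width, with medians of 780 bases at 1 µM and 1001 at 0.01 µM. Regions with several peaks at 1 µM and 1 at 0.01 µM numbered 3457, and the reverse 1635. How far this splitting enters the H3K4me2 counts was not tested.

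H3K4me3, the promoter mark, went the other way. Of 29423 regions, 23154 (78.7%) were called at both doses, 2101 (7.14%) only at 1 µM and 4168 (14.2%) only at 0.01 µM, a log2 ratio of -0.99. With lists of equal length the H3K4me3 counts were 2517 and 3170 and the log2 ratio was -0.33. The 3 methylation marks thus shared most of their regions between the doses, and in bases the overlap was similar across these marks. The Jaccard index, the bases covered in both lists over those covered in either, was 0.754, 0.747 and 0.783 for H3K4me1, H3K4me2 and H3K4me3. The bases on dose-only peaks were fewer still: they made up 7.38% of the H3K4me1 bases at 1 µM and 3.36% at 0.01 µM, and 3.47% and 6.87% of the H3K4me3 bases.

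H3K27ac differed most between the doses. Of 60023 merged regions, 26354 (43.9%) were called at both, 7820 (13%) only at 1 µM and 25849 (43.1%) only at 0.01 µM, which gave a log2 ratio of -1.73. The list at 0.01 µM was the longer, with 55793 peaks over 199 Mb against 38808 peaks over 142 Mb at 1 µM. It was also the longest of the 5 H3K27ac lists, the others holding 32789 peaks in DMSO, 24552 with MC_2580 and 41191 in the combination. With lists of equal length the H3K27ac counts were 10433 and 12390, a log2 ratio of -0.25. The sources used here give no read numbers, so depth is unknown, and more acetylated regions cannot be told apart from a deeper or noisier library.

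The excess at 0.01 µM lay almost wholly outside H3K4me1. H3K27ac regions were split by whether they touched an H3K4me1 peak of either RA dose. On H3K4me1, 22795 of 33927 regions (67.2%) were called at both doses, 6024 (17.8%) only at 1 µM and 5108 (15.1%) only at 0.01 µM, a log2 ratio of 0.24. Off H3K4me1, 3559 of 26096 regions (13.6%) were called at both doses, 1796 (6.88%) only at 1 µM and 20741 (79.5%) only at 0.01 µM, a log2 ratio of -3.53. The Jaccard index was 0.566 on H3K4me1 and 0.109 off it.

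At the 2 doses the H3K27ac lists held nearly the same number of peaks on H3K4me1, 31229 at 1 µM and 30721 at 0.01 µM. Off H3K4me1 they held 7579 and 25072, which is 19.5% and 44.9% of each list. The same share was 19.1% in DMSO, 13.1% with MC_2580 and 22.6% in the combination, so the low-dose library stood apart from the other 4. The peaks off H3K4me1 at 0.01 µM covered 62.8 Mb, against 15.0 Mb at 1 µM. The small excess of 1 µM on H3K4me1 depended on the processing in both directions. With H3K4me1 peaks of all 5 conditions as the filter, the counts were 6362 and 7237 and the log2 ratio was -0.19, and with H3K27ac lists of equal length they were 7916 and 2758, a log2 ratio of 1.52.

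**Figure D1:**
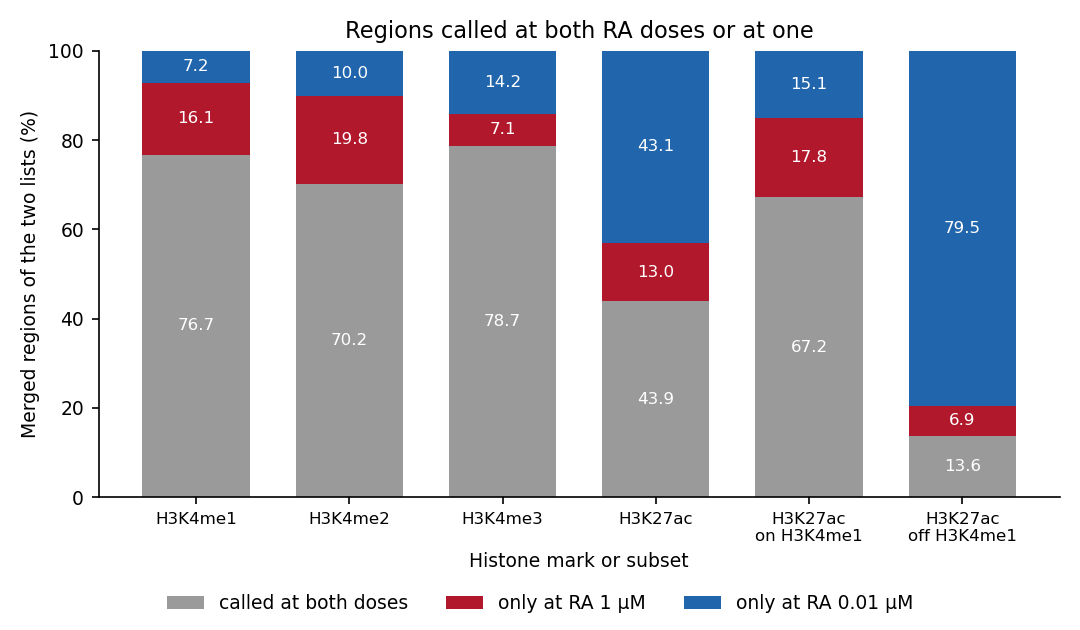
Stacked bars give, for each mark and for H3K27ac on or off H3K4me1, the percent of merged regions called at both RA doses (grey), only at 1 µM (red) or only at 0.01 µM (blue), 1 library per mark and dose. The grey part is 70.2 to 78.7% in the 3 methylation marks and 43.9% in H3K27ac, and off H3K4me1 the blue part reaches 79.5%.

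Peaks found at 1 dose only were weak within their own list. The score, the authors' value per peak on the caller's scale of a log10-transformed p-value, starts at 50 and piles up at 3100. For H3K4me1 the median score was 73.2 for peaks only at 1 µM and 293 for shared peaks of the same list, which placed them at median rank percentiles of 13.8 and 58.2. At 0.01 µM the medians were 63.7 and 199.5, at percentiles of 10.8 and 53.9. H3K4me2 peaks only at 1 µM had a median score of 76.3 against 749.9 for shared ones, and H3K4me3 peaks only at 0.01 µM had 72.4 against 1355. In H3K27ac the medians were 90.9 against 393 at 1 µM and 87.4 against 490.5 at 0.01 µM, and the dose-only peaks sat higher in their lists, at percentiles of 25.4 and 29.1.

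The share of peaks called at the other dose rose with the score in every mark. In the top quartile of scores, 99.99% of H3K4me1 peaks at 1 µM and 99.98% at 0.01 µM were shared, and in H3K4me2 and H3K4me3 none of that quartile was called at 1 dose only. In the lowest quartile, 48.9% of H3K4me1 peaks at 1 µM were shared (95% exact binomial interval 48.1 to 49.6%, counting error only) and 73.2% (72.5 to 73.9%) of those at 0.01 µM. H3K4me3 had the opposite order there, 70.1% and 47.5%. H3K27ac kept a gap further up the list: of peaks at 0.01 µM, 19.8%, 31.9%, 64.2% and 98.8% were shared from the lowest to the highest quartile, against 60.3%, 72.6%, 87.5% and 98.99% at 1 µM. On H3K4me1 the 2 doses ran close together, with 56.5% and 55.9% in the lowest quartile.

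**Figure D2:**
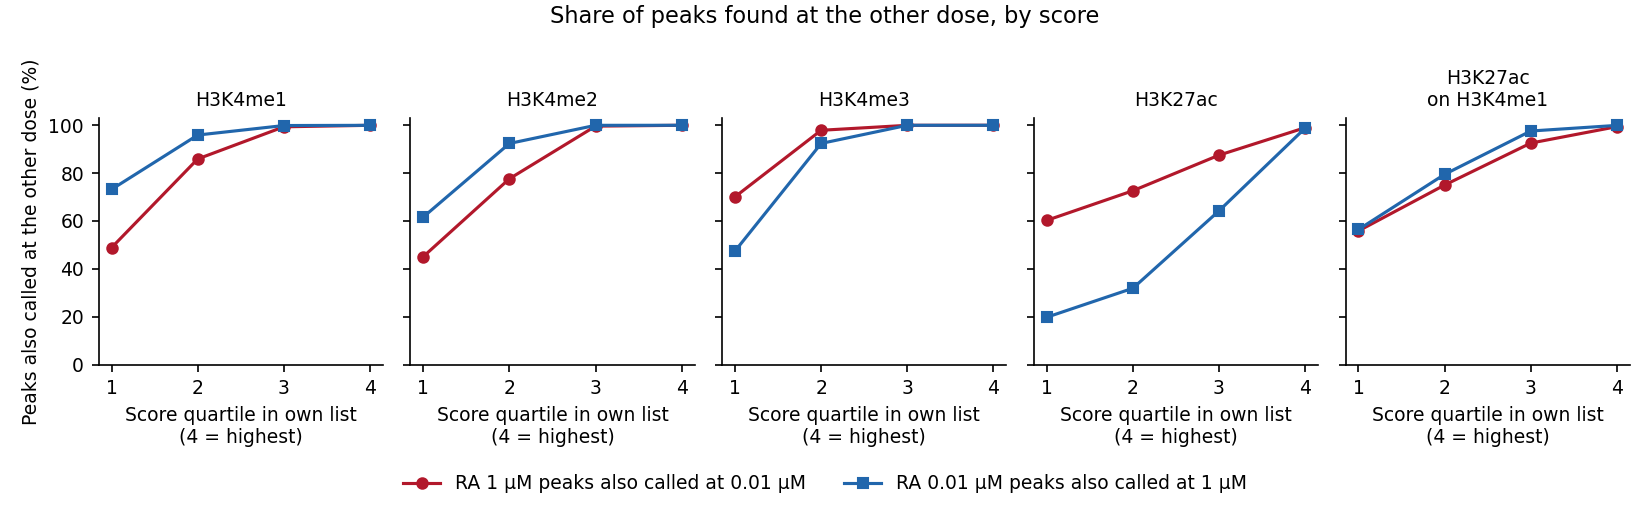
Each panel plots, for 1 mark, the percent of peaks also called at the other RA dose (y axis) in 4 quartiles of the score within the peak's own list (x axis), red circles for the 1 µM list and blue squares for the 0.01 µM list. Top quartiles reach 98.8% or more in every panel, while the lowest quartile of H3K27ac at 0.01 µM is at 19.8%, against 56.5% for the same dose on H3K4me1.

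Dose-only peaks were also narrow. H3K4me1 peaks only at 1 µM had a median width of 1168 bases, against 2274 for shared peaks, and those only at 0.01 µM had 1076 against 2067. H3K4me2 gave 397 against 983 bases at 1 µM and 521 against 1125 at 0.01 µM, and H3K4me3 gave 1287 against 2714 and 1423 against 3003. For H3K27ac the widths were 1825 against 2833 bases at 1 µM and 1933 against 3111 at 0.01 µM. Because 1 common base made a peak shared, a wide peak is more easily shared than a narrow one, and this enters all these widths. Under that definition, domains of 10 kb or wider were nearly always shared. Among such H3K27ac peaks, 40 of 1931 at 1 µM and 95 of 2526 at 0.01 µM were called at 1 dose only, and in H3K4me1 this was 1 of 1356 and 1 of 1042. Off H3K4me1 the H3K27ac counts were 1 of 4 and 48 of 169.

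Some dose-only peaks lay close to a peak of the other list. Of the H3K4me2 peaks only at 1 µM, 38.1% were within 1 kb of an H3K4me2 peak at 0.01 µM, and the median distance was 2.27 kb. For H3K4me1 only at 1 µM the median was 4.63 kb. These distances depend on how many peaks the other list holds, so they are not compared between marks or doses.

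Where a region had exactly 1 peak at each dose, widths could be compared directly. H3K4me1 peaks were slightly wider at 1 µM, with a median log2 width ratio (1 µM over 0.01 µM) of 0.08 over 43886 regions, of which 63.6% were wider at 1 µM. H3K4me2 and H3K4me3 peaks were slightly narrower at 1 µM, with medians of -0.05 (25279 regions) and -0.09 (21955 regions). H3K27ac had a median of -0.08 over 21053 regions and a much broader spread: 1042 regions were at least 2-fold wider at 1 µM and 2340 at least 2-fold narrower. Spearman's rho between the widths at the 2 doses, a description over regions of 2 libraries, was 0.885, 0.914, 0.951 and 0.579 for H3K4me1, H3K4me2, H3K4me3 and H3K27ac.

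Part of the H3K27ac difference in width came with low scores and with the absence of H3K4me1. Off H3K4me1 the median log2 width ratio was -0.51 over 3196 regions, with median widths of 1684 bases at 1 µM and 2610 bases at 0.01 µM. On H3K4me1 it was -0.03 over 17857 regions. Among the 6409 H3K27ac regions that scored 1000 or more at both doses it was 0.01, and 81 were at least 2-fold wider and 117 at least 2-fold narrower at 1 µM. In the median, strong H3K27ac regions with 1 peak at each dose thus had about the same width at both. Their quartiles of the log2 ratio were -0.19 and 0.22. Spearman's rho of their widths was 0.831, against 0.948 to 0.965 for methylation marks at the same scores. Regions with 1 peak at each dose were 79.9% of the shared H3K27ac regions, and widths of the rest were not compared.

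**Figure D3:**
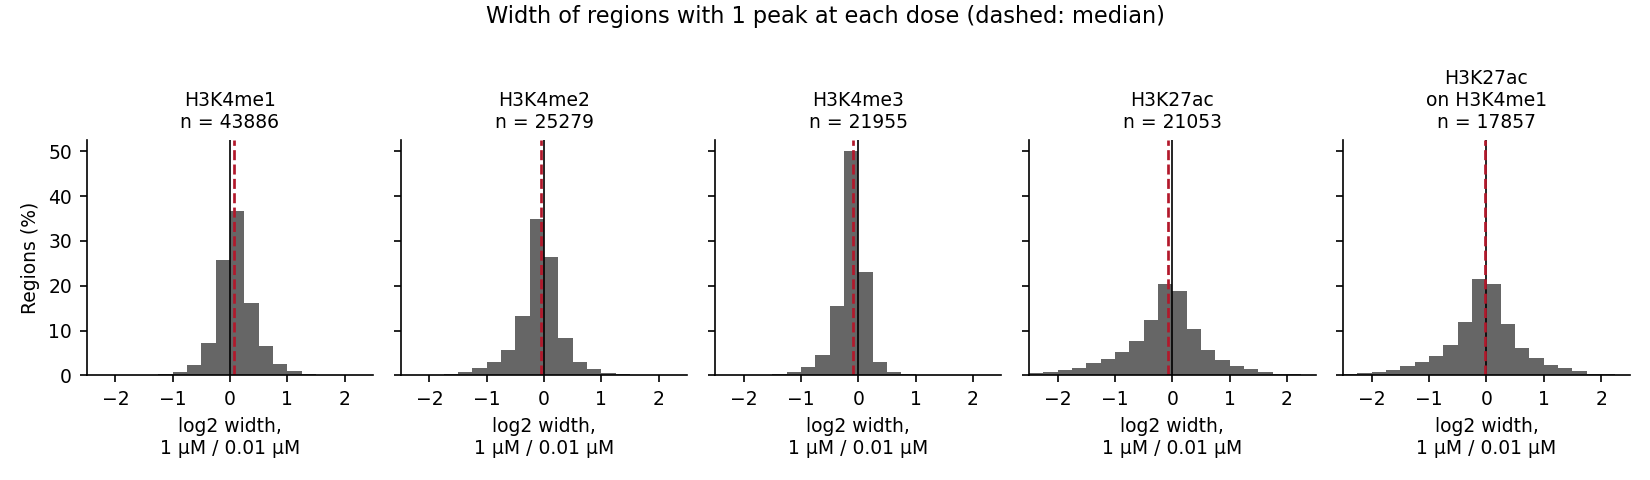
Histograms show the log2 ratio of peak width, 1 µM over 0.01 µM (x axis, bins of 0.25), as percent of regions with exactly 1 peak at each dose (y axis), the black line marking equal width and the dashed line the median. H3K4me3 is the narrowest distribution, with a median of -0.09, and H3K27ac the broadest, with a median of -0.08.

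Most H3K4me1 and H3K4me2 peaks found at 1 RA dose only were also called in at least 1 of the other conditions. Of H3K4me1 peaks only at 1 µM, 55.8% (54.8 to 56.7%) had an H3K4me1 peak in DMSO and 76.4% in the combination, and 15.2% were in none of DMSO, MC_2580 and the combination. Those only at 0.01 µM were in DMSO in 46.6% and in the combination in 65.9%. Shared H3K4me1 peaks were in DMSO more often, in 91.7% of the 1 µM list and 91.8% of the 0.01 µM list. Only 0.83% and 0.79% of the shared peaks were in none of DMSO, MC_2580 and the combination. H3K4me2 peaks only at 0.01 µM had a DMSO call more often, 55.4%, than those only at 1 µM, 30.8%. For shared H3K4me2 peaks it was 89.6% in the 0.01 µM list and 89.2% in the 1 µM list. DMSO-treated cells seldom carried the dose-only H3K4me3 peaks: 10.8% of those only at 1 µM and 15.1% of those only at 0.01 µM were called there. MC_2580 alone had 48.2% and 54.7% of them. Shared H3K4me3 peaks were called in DMSO in 79.97% of the 1 µM list and 80.6% of the 0.01 µM list. With MC_2580 they were called in 93.7% and 93.8%. The H3K4me3 lists were 21688 peaks long in DMSO and 29872 with MC_2580. For the H3K4me3 library of the combination, the title names RA at 1 µM and the treatment field 0.01 µM, so its calls are not used to place a dose.

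H3K27ac peaks only at 0.01 µM were mostly private to that library. Of the 25849, 73.8% (73.2 to 74.3%) had no H3K27ac call in DMSO, MC_2580 or the combination, and 17.5% had one in the combination, which holds RA at the same dose. Of the 7820 only at 1 µM, 35.5% (34.5 to 36.6%) had none, and 51.0% were called in the combination. Of shared H3K27ac peaks, 7.18% in the 0.01 µM list and 8.0% in the 1 µM list had none. On H3K4me1 the shares without any call were 47.9% for 0.01 µM and 28.4% for 1 µM, and the combination held 36.6% and 57.3%. Off H3K4me1, 80.1% and 59.5% had no call. Among shared peaks of the 0.01 µM and 1 µM lists, 3.82% and 3.92% had no call on H3K4me1. Off H3K4me1 the shared peaks without a call were 27.1% and 26.0%. The combination list was 41191 peaks long and covered 149 Mb, and how far list length enters these shares was not tested.

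**Figure D4:**
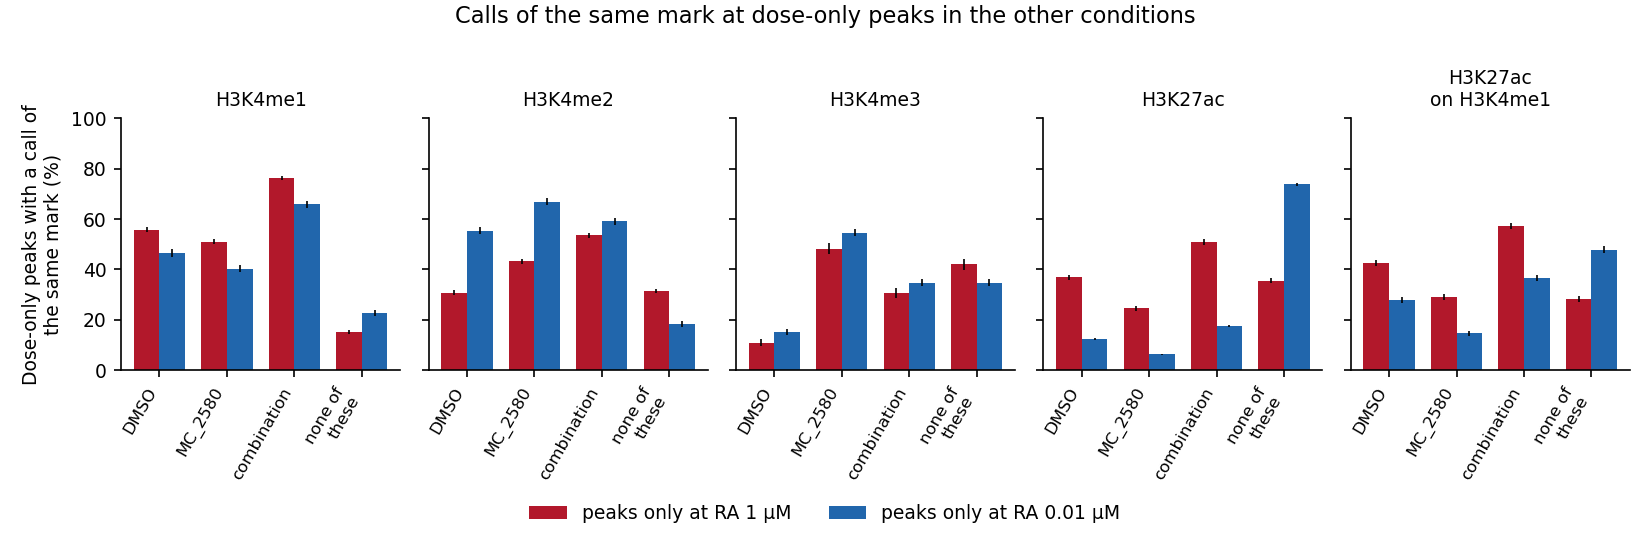
Bars give the percent of dose-only peaks that overlap a peak of the same mark in DMSO, MC_2580 or the combination, or in none of these, for peaks only at RA 1 µM (red) and only at 0.01 µM (blue), with 95% exact binomial intervals that cover counting error only. In H3K27ac the blue bar for no call in them stands at 73.8% against 35.5% for the red one, and on H3K4me1 they are 47.9% and 28.4%. Shared H3K27ac peaks, not drawn, lacked such calls in 7.18% of the 0.01 µM list and 8.0% of the 1 µM list.

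The 2 groups of dose-only H3K27ac peaks lay in different chromatin. Of those only at 1 µM, 51.9% carried H3K4me1 or H3K4me2 of either RA dose without H3K4me3, the usual combination of distal enhancers, 26.4% carried H3K4me3 and 21.8% no H3K4 methylation. Of those only at 0.01 µM, 75.9% carried no H3K4 methylation, 16.7% H3K4me1 or H3K4me2 without H3K4me3, and 7.35% H3K4me3. Shared H3K27ac peaks most often carried H3K4me3, 55.2% in the 1 µM list and 57.4% in the 0.01 µM list. H3K4me1 or H3K4me2 without H3K4me3 was at 27.8% and 29.65% of them, and no H3K4 methylation at 17.1% and 12.95%. Within the part on H3K4me1, H3K4me3 was present at 33.1% of the peaks only at 1 µM, 28.6% of those only at 0.01 µM, and 66.7% and 66.0% of the shared ones. H3K4me2 was called at 27.95% of the first and 43.3% of the second.

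LSD1, a demethylase of H3K4me1 and H3K4me2, and GFI1 were mapped in cells without RA. To keep peak width out of the count, only the central 1 kb of each H3K27ac peak was searched. LSD1 was called there at 7.76% of peaks only at 1 µM, at 1.77% of those only at 0.01 µM and at 21.9% of shared peaks of the 1 µM list. GFI1 was called at 10.4%, 3.00% and 15.9%. On H3K4me1 the dose-only groups were nearer to each other, with LSD1 at 9.99% (9.25 to 10.8%) for 1 µM and 7.95% (7.22 to 8.72%) for 0.01 µM, and GFI1 at 12.6% and 7.89%. Both groups lay below the shared peaks on H3K4me1. There LSD1 was called at 26.8% in the 1 µM list and 25.4% in the 0.01 µM list, and GFI1 at 19.0% and 17.5%. The LSD1 lists had been filtered before deposit, keeping 12562 of 50877 numbered calls in DMSO, so these shares are of the strong LSD1 sites.

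**Figure D5:**
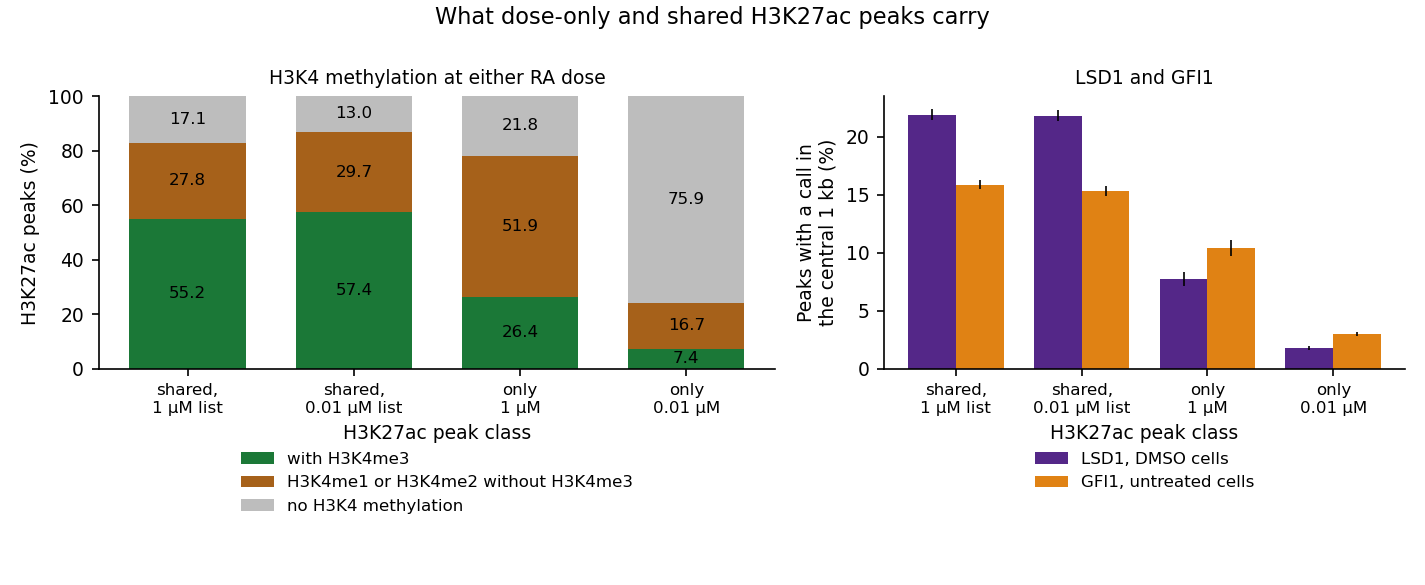
On the left, stacked bars give the percent of H3K27ac peaks with H3K4me3, with H3K4me1 or H3K4me2 only, or without H3K4 methylation at either RA dose, for shared peaks of each list and for dose-only peaks. On the right, bars give the percent with an LSD1 or GFI1 call in the central 1 kb, with 95% exact binomial intervals for counting error. Peaks without H3K4 methylation make up 75.9% of those only at 0.01 µM and 21.8% of those only at 1 µM.

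Most dose-only peaks met no dose-only peak of the same dose in another mark. This held for 87.95% of the H3K27ac peaks only at 1 µM and 97.0% of those only at 0.01 µM. In the methylation marks this share ran from 86.7% to 91.4%. Regions only at 1 µM made up 7.14% to 19.8% of all regions of a methylation mark, and those only at 0.01 µM 7.15% to 14.2%. Of the H3K27ac peaks only at 0.01 µM, 75.9% carried no H3K4 methylation at all. Among shared H3K27ac peaks this was 17.1% in the 1 µM list and 12.95% in the 0.01 µM list. How often shared peaks met a dose-only peak of another mark was not counted. No link or lack of one between the marks is therefore read from the shares that met none. Most H3K27ac peaks only at 1 µM, 68.7%, lay on H3K4me1 that was called at both doses, and 6.14% on H3K4me1 called only at 1 µM. The 68.7% is of all these peaks, and 22.97% of them met no H3K4me1 of either dose. Among the 6024 on H3K4me1, 89.2% lay on H3K4me1 of both doses, against 67.5% of the 5108 only at 0.01 µM. Of all H3K4me1 regions, 76.7% were called at both doses. Shared H3K27ac peaks were not counted in this way, so nothing further is read from these shares. For H3K27ac only at 0.01 µM, 13.3% lay on H3K4me1 of both doses, 1.61% on H3K4me1 called only at 0.01 µM and 4.82% on H3K4me1 called only at 1 µM.

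Only 3 H3K27ac dose-only peaks touched dose-only peaks of the same dose in all 3 methylation marks. On hg18, the build of all positions here, chr7:95073924-95078492 had an H3K27ac score of 829 at 1 µM and 559 in the combination, and no H3K27ac call in DMSO, MC_2580 or RA at 0.01 µM. Its H3K4me2 score was 115 at 1 µM and its H3K4me3 score 51.5, just above the floor, while H3K4me1 was also called beside the dose-only part in all 5 conditions, at scores of 248 in DMSO, 257 with MC_2580, 269.5 at 0.01 µM, 363 at 1 µM and 343.5 in the combination. At chr10:94827971-94834002, H3K27ac was called at 1 µM with a score of 68.6 and in the combination with 542. H3K4me1 was likewise called only in those conditions, at 135 and 169. H3K4me3 was called within these bounds at 1 µM only. H3K4me2 was called in DMSO, with MC_2580, at 1 µM and in the combination, at 93.3, 125, 162 and 248. The region on the low-dose side, chr1:36638356-36641036, had H3K27ac at 263 with RA at 0.01 µM, 177 in DMSO and 77.3 in the combination, so that the call was missing at 1 µM and with MC_2580.

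Scores of different lists depend on their libraries and are set side by side below only to show where a call was made. No peaks were removed here for lying in repeats or other artefact-prone sequence, and the named regions were not tested for this. Most of the strongest dose-only peaks of the methylation marks were also called in DMSO, with MC_2580 or in the combination. The exception was 1 H3K4me3 peak only at 1 µM. Per mark and dose, 2 to 5 of the 5 peaks were called in all of these conditions. All 5 H3K4me1 peaks with the highest scores among those only at 1 µM, from 387 to 858, were also called in DMSO, with MC_2580 and in the combination, and lacked a call at 0.01 µM alone. The highest, chr10:38062393-38073310, was 10918 bases wide, had H3K4me1 scores of 1657, 3042, 858 and 1223 in DMSO, with MC_2580, at 1 µM and in the combination, and held a GFI1 peak of score 3100. In the same way, the 5 strongest H3K4me2 peaks only at 0.01 µM, with scores of 293 to 379, were called in DMSO, MC_2580 and the combination and were missing at 1 µM alone. H3K4me1 and H3K4me3 were called at all 5 of them in every condition.

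H3K4me1 peaks only at 0.01 µM included 2 strong calls. At chr6:7054840-7065918 the H3K4me1 score was 2795 at 0.01 µM and 3100 in the combination, with no H3K4me1 call in DMSO, MC_2580 or RA at 1 µM. H3K4me2 and H3K4me3 scored 3100 there in all 5 conditions, and H3K27ac scored 2012 with MC_2580 and 3100 in the other 4. At chr6:43005279-43012129 the H3K4me1 score was 3100 in DMSO, 1908 with MC_2580 and 1672 at 0.01 µM, with no call at 1 µM or in the combination. The other 3 marks were again called in every condition. Both are regions with strong marks of active promoters at both doses, where only the H3K4me1 call differed.

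The strongest H3K4me2 peak only at 1 µM lay in a region where H3K4me3 and H3K27ac were called only in the conditions with RA. At chr9:131552217-131553180 H3K4me2 scored 955 at 1 µM and 142.5 in the combination. It lay inside chr9:131550132-131556368, the H3K4me3 region with the largest gain in width among those scoring 1000 or more at both doses, 6237 bases at 1 µM and 3019 bases at 0.01 µM (log2 ratio 1.05). Over that wider region, H3K4me3 scored 1336 at 0.01 µM, 3100 at 1 µM and 1354 in the combination and was not called in DMSO or with MC_2580. H3K27ac scored 3100 in the same 3 conditions and was not called in the other 2. H3K4me1 scored 92.8 in DMSO, 101 with MC_2580, 278 at 0.01 µM, 1183 at 1 µM and 1167 in the combination. H3K4me2 scored 233, 423, 1201, 3100 and 3100 in that order. Both doses of RA had the H3K4me3 and H3K27ac calls here, and the high dose had the wider H3K4me3 peak.

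H3K4me3 peaks at 1 dose only were weaker. The highest score only at 1 µM was 545 at chr2:72004825-72011254, 6430 bases wide, where no other H3K4me3 list had a call. H3K4me1, H3K4me2 and H3K27ac were called there in all 5 conditions, and the H3K4me1 score was 1019 in DMSO, 1562 at 0.01 µM and 2818 at 1 µM. The highest score only at 0.01 µM was 883 at chr4:48798869-48805800, where H3K4me3 also scored 999.7 in DMSO and 420 in the combination. No other histone mark was called there, and GFI1 scored 1992, against a median of 72.7 over the GFI1 list. Whether this is an artefact of repeated sequence was not tested. Of the 5 strongest H3K4me3 peaks only at 0.01 µM, 4 had no other histone mark in any condition, and of the 5 only at 1 µM this held for 3.

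H3K27ac had dose-only peaks with scores as high as the scale allows. Among peaks scoring 1000 or more, a group chosen after its values were seen, 167 of 10980 (1.52%) at 1 µM and 17 of 10780 (0.158%) at 0.01 µM were called at 1 dose only. Of the 167, 133 (79.6%) were called in DMSO, 118 (70.7%) with MC_2580 and 166 in the combination, and 115 in all of these. H3K4me1 of both doses was present at 166 of them. For these 115, the call was missing in the list at 0.01 µM alone. Counted from DMSO, 177 of 7912 DMSO peaks scoring 1000 or more (2.24%) had no H3K27ac call at 0.01 µM and 52 (0.657%) none at 1 µM.

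The highest H3K27ac score only at 1 µM, 3161, was at chr7:30326626-30329787. H3K27ac scored 885 there in DMSO, 506 with MC_2580 and 1192 in the combination, and the 3 methylation marks were called in all 5 conditions. The second was chr2:36320360-36329897, with H3K27ac scores of 811, 537, 3110 and 523 in DMSO, with MC_2580, at 1 µM and in the combination. At chr19:52677586-52685221 and chr19:53800267-53845164 the acetylation was called at 1 µM (3108 and 3100) and in the combination (2109 and 1322) and in no other list, while H3K4me1, H3K4me2 and H3K4me3 were called in all 5 conditions and LSD1 in both of its lists. The latter was 44898 bases wide and 1 of 11 peaks tied at 3100. The fifth, chr19:7619203-7644450, scored 2185 in DMSO, 1364 with MC_2580 and 3100 at 1 µM and in the combination. Scores slightly above 3100 may not mean stronger peaks.

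Among H3K27ac peaks only at 0.01 µM, chr7:156978074-156990251 scored highest, at 3107, with 366 in DMSO and no call elsewhere. At chr15:99467740-99482906 the score was 3100 at 0.01 µM and 304 in the combination, with no H3K27ac call in DMSO, with MC_2580 or at 1 µM. H3K4me1 was called there in all 5 conditions, at 1229 with 0.01 µM and 2153 with 1 µM, and LSD1 scored 993.5 in DMSO. The next, chr12:110085998-110097121, scored 2069 at 0.01 µM, 199 in DMSO and 65.3 with MC_2580. The fourth, chr9:34654103-34658548, scored 2041 and was called in all conditions but RA at 1 µM, at 486 in DMSO, 295 with MC_2580 and 362 in the combination. The fifth, chr10:72790724-72799223, scored 1431 and was also called in DMSO (243) and the combination (642). H3K4me1 was called at all 5 of these regions in every condition. Inside the chr12 region the H3K4me2 peak chr12:110092816-110093416 was in turn called at 1 µM, at 491.5, and not at 0.01 µM.

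Shared regions with large differences in width were also named by a rule on score. The H3K27ac region chr7:76654296-76668710 was 14415 bases wide at 1 µM and 2927 bases at 0.01 µM, a log2 ratio of 2.30, with scores of 3100 and 2288. Opposite to it, chr4:1328129-1347038 was 4592 bases wide at 1 µM and 18910 at 0.01 µM (-2.04). For H3K4me3 the largest loss was chr9:124171840-124180183, 3196 against 8344 bases (-1.38). H3K4me1 had the smallest extremes, with 4786 against 2407 bases at chr12:122047747-122052532 (0.99) as the largest gain and 11213 against 14853 bases (-0.41) as the largest loss. The H3K4me2 extremes were 1749 against 818 bases at chr3:49700971-49702719 (1.10) and 891 against 2151 bases at chr12:42161713-42163863 (-1.27). All of these regions scored 1000 or more at both doses, so the widths and not the calls differed.

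Windows of 100 kb showed where dose-only H3K27ac peaks gathered. The richest window only at 1 µM was chr1:183600001-183700000, with 11 such peaks. The H3K27ac calls in it numbered 2 in DMSO, 1 with MC_2580, 3 at 0.01 µM, 14 at 1 µM and 11 in the combination. H3K4me1 had 3, 3, 13, 9 and 13 calls in the same order. Whether the H3K4me1 calls at 0.01 µM lay at the places acetylated at 1 µM was not tested. The window was chosen for its peaks only at 1 µM, so few acetylation calls at 0.01 µM follow in part from that choice. In chr19:8100001-8200000, 1 of 3 windows with 9 peaks only at 1 µM, the H3K27ac calls numbered 8, 4, 1, 9 and 5, so DMSO had nearly as many calls as the high dose, and the window held 38 GFI1 peaks. The richest windows only at 0.01 µM, chr10:134700001-134800000 with 18 and chr11:1000001-1100000 with 17, had no H3K27ac call at 1 µM, 1 in the combination, and 0 and 1 in DMSO. These windows were chosen for peaks only at 0.01 µM, so the lack of calls at 1 µM follows in part from that choice. H3K4me1 had 1 or 2 calls in either of them in every condition.

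Windows of the methylation marks were taken in the same way. The H3K4me2 window with most peaks only at 1 µM, chr10:73100001-73200000, held 13, with 12, 18, 20, 30 and 21 H3K4me2 calls in DMSO, MC_2580, 0.01 µM, 1 µM and the combination. The H3K4me1 window chr17:77000001-77100000, tied with 2 others at 8 peaks only at 1 µM, had 14 H3K4me1 calls at 0.01 µM and 20 at 1 µM. At most 6 H3K4me2, 5 H3K4me1 and 5 H3K4me3 peaks only at 0.01 µM shared a window.

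The share of dose-only H3K27ac peaks varied across chromosomes at both doses. At 1 µM it ran from 8.11% of peaks on chromosome 19 to 29.4% on chromosome 4, with chromosome Y, which held 1 peak, left out. At 0.01 µM it was 28.8% on chromosome X and 41.2% to 58.2% on the autosomes, the highest being chromosome 22. Chromosome 19 had the lowest share only at 1 µM, and 47.9% (1430 of 2982) of its peaks at 0.01 µM were called at that dose only.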

How the data were processed

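ChIP-seq of 4 histone marks in NB4 cells was analysed from the authors' deposited peak lists, 1 per library. Per the submitters' processing notes, the tools before deposit included Bowtie 1.0.1 and MACS 1.4.1, with build hg18. Each deposited list gives chromosome, start, end and the authors' score per peak, used only to rank and filter within a list. Samples were grouped by antibody and treatment. A peak was dose-only when it shared no base with any peak of that mark at the other dose, and starts below 0 (6 peaks in the RA lists) were set to 0. Peaks were compared with NumPy 2.4.6, pandas 2.3.3 and SciPy 1.17.1, after a check of the overlap steps on simulated lists. With 1 library per group no test was made. Regions were named by rule: per mark and direction the 5 highest-scoring dose-only peaks (ties by width, then position) and the densest 100 kb window, H3K27ac peaks dose-only in all 4 marks, and the largest width gain and loss among regions scoring 1000 or more at both doses. The H3K4me1 width loss, on chromosome 8, is given by its widths alone. Members, marks and rules were chosen with earlier results of these data known. Gene annotation and sequence on hg18 were not used here, so the cell type was not checked against marker genes.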

Additional observations from a re-analysis of the deposited data

How the results depend on the processing

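No paired analysis was possible because each mark and dose has 1 library and no test was made. Log2 ratios of dose-only peaks, 1 µM over 0.01 µM, are given for H3K4me1, H3K4me2, H3K4me3, H3K27ac and H3K27ac on H3K4me1 in this order, where they moved beyond counting error. The reported values are 1.18, 0.98, -0.99, -1.73 and 0.24. With a minimum score of 100 in both lists they were 2.15, 1.53, -1.76, -1.45 and 0.11. A 50% reciprocal overlap gave 0.40, 0.77, -0.48, -0.94 and 0.065. Where a dose-only peak had to score 100 and meet no peak of any score, they were 2.65, 1.86, -2.01, -1.60 and 0.39. Lists of equal length gave 0.50, -0.32, -0.33, -0.25 and 1.52, turning H3K4me2. Peaks trimmed to 500 bases either way from their centre gave 0.45, 1.05, -0.49, -0.99 and 0.32. Joining peaks within 1 kb moved H3K4me1 to 1.06, H3K27ac to -1.65 and H3K27ac on H3K4me1 to 0.34. With H3K4me1 of all 5 conditions the last turned to -0.19. Autosomes alone moved none of the 5 beyond counting error. The 12 alternative width ratios kept their sign. The H3K27ac width ratio moved from -0.075 to -0.037 with a minimum score of 100 and to -0.041 with a 50% reciprocal overlap. Jaccard indices ran from 0.177 (H3K27ac, centres) to 0.805 (H3K4me3, minimum score 100). Fewer peaks enter when lists are cut, and the other causes were not tested. Depth is unknown and limits every count of weak peaks.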
